A study of Mus musculus with 22 samples.

Results

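FGF1 was compared with vehicle in single whole cells of the hypothalamus, 5 days after treatment, within each of the cell clusters that the authors deposited. The comparison used every whole cell in the deposited table, 54890 cells from 12 of the 22 samples, and each of these samples was 1 mouse. The study's text gives this dataset a larger number of cells, ahead of quality control and doublet removal. A cell was assigned to its mouse by the library name in the deposited metadata and to its cluster by the deposited cluster number. The raw counts were then summed per mouse within each cluster, so that a gene that changed inside a cluster could be told from a gene that followed the number of cells in a cluster. All 12 animals were male Lep ob/ob mice of age 11 weeks, which lack leptin and are obese and diabetic. Mice 6, 7, 10, 21, 28 and 36 received recombinant human FGF1 (3 µg) once into the lateral ventricle, and mice 20, 22, 25, 27, 29 and 35 received vehicle and were pair-fed, that is, given no more food than the FGF1 group ate. Pair-feeding holds food intake equal, and no freely fed vehicle group entered the comparison. The deposited metadata place 1 FGF1 mouse and 1 vehicle mouse in each of 6 batches without saying what a batch is. Cells came from an enzymatically dissociated wedge around the mediobasal hypothalamus, and the study had removed neurons and predicted doublets from these cells, which leaves glia, ventricular lining cells and vascular cells.

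FGF1 is a secreted growth factor that binds the FGF receptors, receptor tyrosine kinases whose signal runs through the MAPK cascade, and a single dose into the brain is known to lower blood glucose in diabetic rodents for a long time. Tanycytes line the floor and the lower walls of the third ventricle and reach with a long process into the hypothalamus. Ependymal cells line the rest of the ventricle and carry motile cilia. Astrocytes clear transmitters, supply cholesterol in lipoproteins and respond to injury by raising Gfap and Vim, both intermediate filament genes. Oligodendrocyte precursor cells (OPCs) divide, pass through a committed stage (COPs) and become myelin-making oligodendrocytes.

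The metadata held 20 cluster numbers, from 0 to 20 without a 14. Clusters 0, 7 and 10 held 5, 6 and 7 of 8 tanycyte markers, clusters 1 and 4 held 7 and 8 of 8 astrocyte markers (cluster 1 lacked Gfap), and clusters 2, 11 and 12 held 8 of 8 oligodendrocyte markers. Cluster 5 was OPC-like (8 of 8), cluster 9 COP-like (7 of 7), cluster 6 ependymal-like (8 of 8) and cluster 3 endothelial-like (8 of 8). Cluster 8 was microglia-like (8 of 8), cluster 13 like vascular and leptomeningeal cells (8 of 8), cluster 15 pericyte-like (8 of 8), cluster 16 macrophage-like (6 of 8) and cluster 19 smooth muscle-like (7 of 7). Cluster 17 also held 8 of 8 OPC markers but was led by the division genes Ube2c, Top2a and Cenpf. Clusters 18 and 20 stayed without a name, since cluster 18 held OPC and oligodendrocyte markers together and cluster 20 held 3 of 8 markers of leptomeningeal cells and 2 of endothelial cells. Cluster 3 also held 7 pericyte markers and cluster 10 held 2 neuron markers, with Meg3 among its 10 leading genes. A cluster was tested when at least 3 mice of each group had 10 cells or more in it. In all, 16 clusters passed, and 12 mice entered every test except those of cluster 7 (5 FGF1 mice), cluster 12 (4 FGF1 mice) and clusters 13 and 16 (5 FGF1 and 4 vehicle mice each).

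A mouse gave 1967 to 7926 cells and 2652897 to 11866269 unique molecular identifiers (UMIs, counted RNA molecules). The median cell held 1409 ± 364 UMIs with FGF1 and 1234 ± 197 with vehicle (mean ± SD over 6 mice each), a difference within the spread (exact permutation test over all splits of the mice, two-sided, p = 0.357). Of the distinct cell barcodes, 1791 occurred in more than 1 library, and 209 of these fell in the same cluster in every library, beside 190.4 that the cluster sizes alone give. FGF1 mouse 6 stood apart in composition, with 19 cells in the ependymal-like cluster and 7 in cluster 7. In all, 4382 cells exceeded the limit of 20% mitochondrial or ribosomal counts that the study's methods state.

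FGF1 mice had far fewer cells in astrocyte-like cluster 1 and far more in astrocyte-like cluster 4. Cluster 1 held 5.03 ± 3.96% of a mouse's cells with FGF1 and 26.7 ± 3.80% with vehicle (mean ± SD, n = 6 each), and cluster 4 held 14.1 ± 3.87% and 2.45 ± 1.95%. By mouse, the lowest, median and highest shares of cluster 1 were 0.828, 3.84 and 11.3% with FGF1 and 21.5, 27.2 and 32.2% with vehicle. Those of cluster 4 were 10.4, 13.1 and 19.8% and 1.02, 1.95 and 6.31%. Neither cluster's groups overlapped (exact permutation test, FDR = 0.0108 over the 20 clusters, from the smallest p that 6 against 6 mice allow, 0.00216). The direction was therefore the same in 6 of 6 batches for both, which is no separate check. FDR is the Benjamini-Hochberg adjusted p throughout.

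Cells of the oligodendrocyte lineage also lay in different clusters in the 2 groups. COP-like cluster 9 held 7.17 ± 3.68% of cells with FGF1 and 0.625 ± 0.256% with vehicle (FDR = 0.0108), and the dividing OPC-like cluster 17 held 0.495 ± 0.377% and 0.0504 ± 0.0394% (FDR = 0.0108). In cluster 17 these were 104 cells from 6 FGF1 mice and 11 cells from 5 vehicle mice. Oligodendrocyte-like cluster 2 fell from 17.9 ± 4.47% to 6.96 ± 4.36% (FDR = 0.0144) and cluster 12 from 2.85 ± 1.6% to 0.766 ± 0.712% (FDR = 0.0247, lost without FGF1 mouse 7, 10, 21 or 28), whereas oligodendrocyte-like cluster 11 rose from 0.706 ± 0.543% to 5.07 ± 3.24% (FDR = 0.0144). No other cluster passed. Tanycyte-like clusters 0, 7 and 10 were each larger on average with FGF1, at 20.7 ± 8.36% against 14.3 ± 5.09% (FDR = 0.248), 9.40 ± 7.35% against 2.31 ± 2.10% (FDR = 0.103) and 3.96 ± 3.64% against 2.01 ± 0.980% (FDR = 0.349). Within batches the FGF1 mouse had the larger share in 6 of 6 for cluster 0, 5 of 6 for cluster 7 and 4 of 6 for cluster 10. OPC-like cluster 5 was at 5.72 ± 2.43% and 8.59 ± 2.11% (FDR = 0.115). Without FGF1 mouse 6, clusters 0, 5 and 7 passed as well, with differences of 9.12, -3.63 and 8.91 percentage points.

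**Figure D1:**
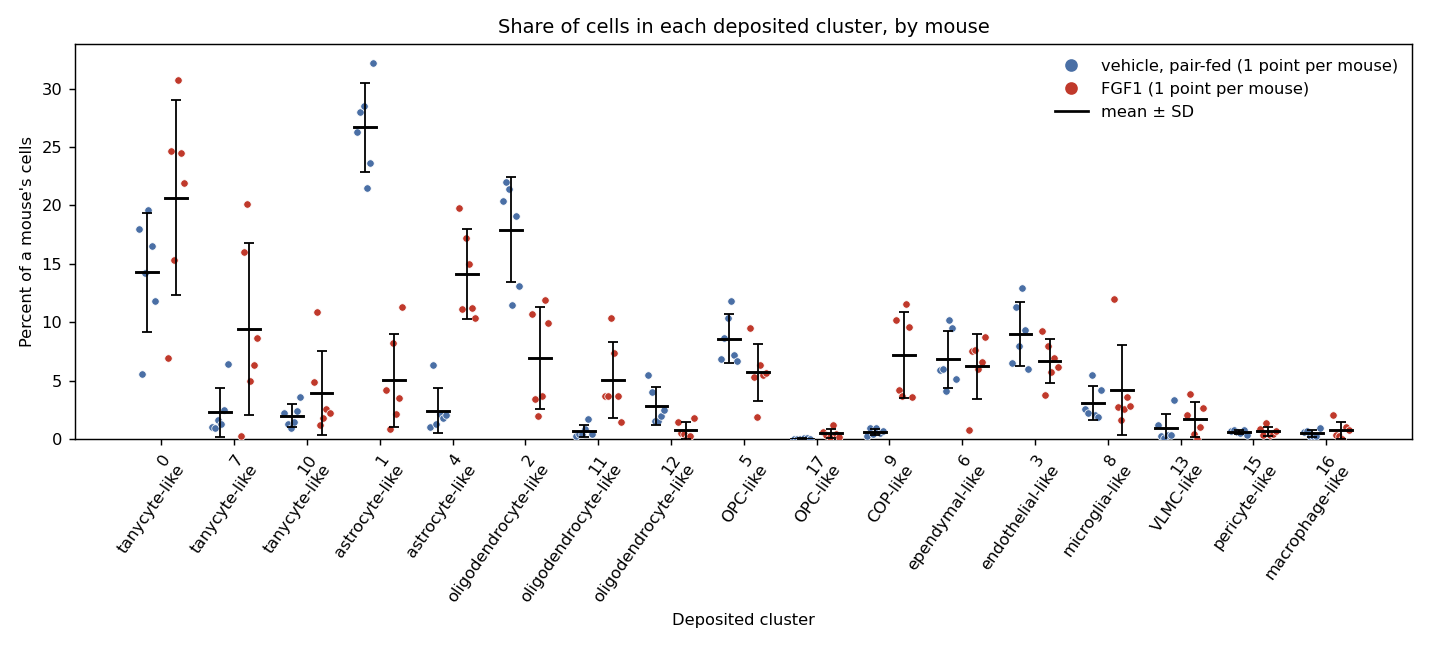
Percent of each mouse's cells (y axis) in 17 of the 20 deposited clusters (x axis), with 1 point per mouse, vehicle beside FGF1, and bars for mean ± SD. Cluster 1 lies between 0.828 and 11.3% with FGF1 and between 21.5 and 32.2% with vehicle, while clusters 4 and 9 lie higher in every FGF1 mouse than in any vehicle mouse.

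The clusters had been drawn from the same counts, and the genes that separate clusters 1 and 4, or 2, 9 and 11, were themselves among the genes that differed between the groups. A larger cluster therefore cannot be told apart from cells that changed expression and were placed elsewhere. The median cell held 1079 ± 178 UMIs with FGF1 and 1097 ± 157 with vehicle in cluster 1 (exact permutation test, p = 0.788), and 1181 ± 232 and 1152 ± 178 in cluster 4 (p = 0.723 by the same exact test). Summed by name, a step chosen after seeing the data, the move between clusters 1 and 4 left a smaller difference. Astrocyte-like cells were 11.9, 19.4 and 25.4% of a mouse's cells with FGF1 (lowest, median and highest) and 23.7, 28.5 and 34.4% with vehicle (means 19.1 ± 5.39% and 29.1 ± 4.5%, exact permutation test, FDR = 0.0404). Oligodendrocyte-like cells were 7.70, 13.1 and 16% and 13.9, 23.1 and 26.5% (FDR = 0.0404), and tanycyte-like cells 12.1, 35.0 and 51.6% and 7.82, 21.3 and 22.4% (FDR = 0.0455). These 3 calls were lost when most single mice were left out, and for tanycyte-like cells without any mouse but FGF1 mouse 6. A dissected wedge can include more or less of the ventricular floor and walls, and the part of dissection in these shares was not tested.

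Within clusters, tanycyte-like cluster 0 had the most differentially expressed genes (DEGs, FDR under 0.05 by edgeR's quasi-likelihood test on the sums per mouse). Below, a value in brackets after a gene is its log2 fold change of FGF1 over vehicle ± standard error with its FDR. Where another setting brought the FDR to 0.05 or more, the call is marked as lost with DESeq2, with no count filter, with mice of at least 30 cells or with cells within the 20% limits. A level is given in CPM (counts per 1000000 counts of a mouse in a cluster) of the lowest, the median and the highest mouse of a group. Cluster 0 had 498 DEGs among 9441 tested genes (5.27%), 249 higher and 249 lower with FGF1. Oligodendrocyte-like cluster 11 had the highest share, with 107 of 1613 (6.63%), 43 higher and 64 lower. With any 1 mouse left out its count ran from 46 to 164, against 234 to 732 in cluster 0, and the rank was not tested. Cluster 0 was also the largest cluster, with 9509 cells, while cluster 11 held 17 to 56 cells per vehicle mouse. The study's methods name the number of cells as a strong driver of such calls, and its part in this ranking was not tested. OPC-like cluster 5 followed with 125 of 5235 (2.39%), then cluster 10 with 46 of 2159 (2.13%), cluster 7 with 78 of 4027 (1.94%), ependymal-like cluster 6 with 86 of 6734 (1.28%) and COP-like cluster 9 with 52 of 4171 (1.25%). Endothelial-like cluster 3 had 60 of 6329 (0.948%), oligodendrocyte-like cluster 2 had 65 of 7187 (0.904%), astrocyte-like cluster 1 had 31 of 7679 (0.404%), astrocyte-like cluster 4 had 23 of 5967 (0.385%), microglia-like cluster 8 had 7 of 2676 (0.262%) and oligodendrocyte-like cluster 12 had 2 of 2251 (0.0888%). Clusters 13, 15 and 16, with 752, 359 and 329 cells, had 0 DEGs by edgeR and 0 by DESeq2, with 13, 36 and 27 genes at an unadjusted p under 0.05. With the batch as a block in the model, the counts were 100 in cluster 1, 112 in cluster 3, 151 in cluster 6, 119 in cluster 7, 14 in cluster 8 and 50 in cluster 12.

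Whole-cell droplets also carry free RNA from lysed cells, so each gene's level in a cluster was set beside its level over all cells of the 12 mice, here called the pooled level. Of the 249 genes that were higher in cluster 0, 191 were at or above their pooled level, against 55 of the 249 that were lower. In cluster 5 these were 33 of 63 and 44 of 62, in cluster 9 they were 31 of 31 and 9 of 21, and in cluster 11 they were 34 of 43 and 47 of 64. In oligodendrocyte-like cluster 2 only 3 of 40 higher genes reached the pooled level, and in endothelial-like cluster 3 only 10 of 23 higher and 3 of 37 lower genes did. Over all cells the summed astrocyte markers ran from 2787 to 4499 CPM in FGF1 mice and from 4470 to 5218 in vehicle mice, and the tanycyte markers from 487 to 1804 and 294 to 722. The part of free RNA in a gene below its pooled level was not tested.

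**Figure D2:**
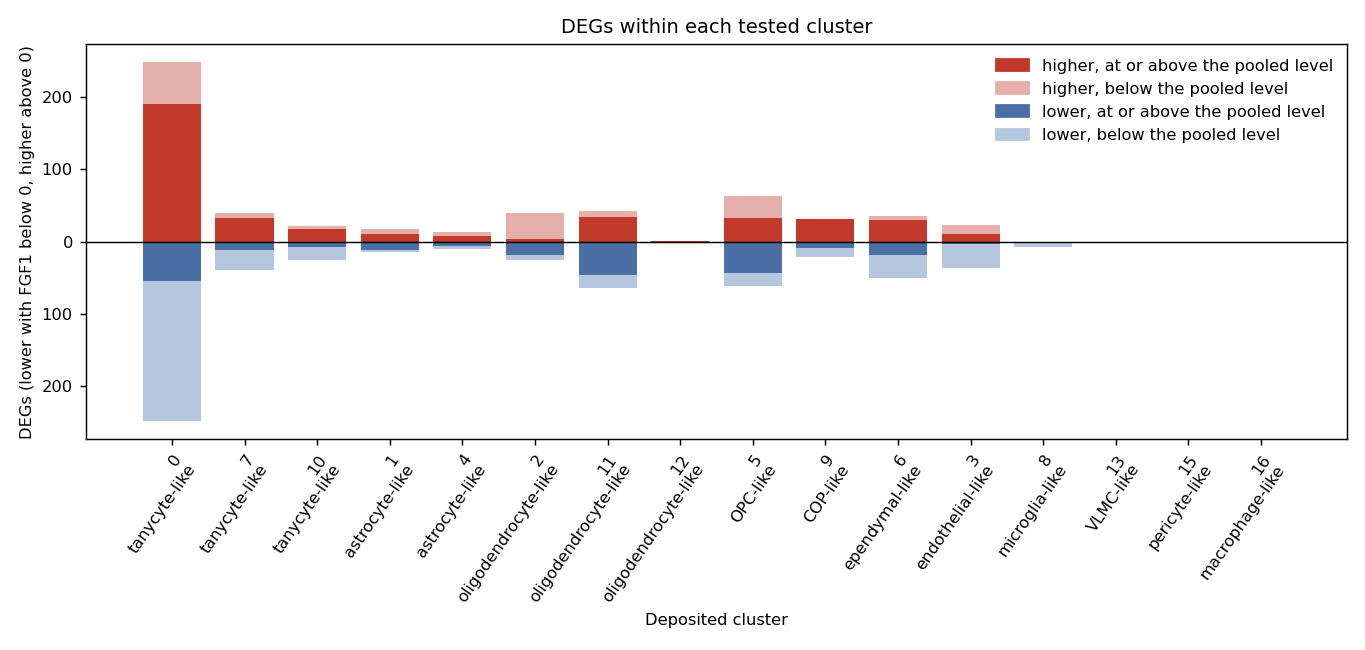
Number of DEGs (y axis, higher with FGF1 above 0 and lower below 0) in each tested cluster (x axis), with genes at or above their pooled level in dark colours and genes below it in pale ones. Cluster 0 has 191 dark and 58 pale genes above 0, and cluster 2 has 3 dark and 37 pale ones.

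Astrocytes were where the cluster view and the merged view parted most. When clusters 1 and 4 were summed into a single astrocyte profile per mouse, 1240 of 9830 genes passed (12.6%), 644 higher and 596 lower, whereas 31 passed inside cluster 1 and 23 inside cluster 4. Cluster 1 held 40 to 813 cells per FGF1 mouse and 423 to 2083 per vehicle mouse, and cluster 4 held 421 to 802 and 43 to 351. The low counts inside the clusters therefore do not show that few genes changed there. The part of these cell numbers was not tested. Cluster 1 gave 91.4% of the astrocyte UMIs in vehicle mice and 22.6% in FGF1 mice, and cluster 4 gave 8.57% and 77.4%. When every mouse was set to the mean cluster shares of the 12 mice (direct standardisation, a description without a test), the median absolute log2 difference of the 1240 genes went from 0.65 to 0.36. The number of these genes that differed by a factor of 2 or more went from 214 to 89, the difference became smaller for 1082 of them, shrank to at most 50% of its size for 507 and changed sign for 54. Since the clusters had been drawn from the same counts, these values describe the clusters as deposited and do not separate a shift between them from changed expression.

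Gfap, the filament gene by which reactive astrocytes are recognised (chr11:102887336-102900912, GRCm38), was set out in both views and was picked after its values were seen. In the merged profile it was higher with FGF1 (log2 fold change 2.21 ± 0.53, FDR = 0.0226), although vehicle mouse 22 (318 CPM) lay above FGF1 mouse 10 (291 CPM). Inside cluster 1 it was at 30.8, 93.6 and 218 CPM (lowest, median and highest mouse) with FGF1 and at 36.6, 42.7 and 68.4 with vehicle, and the groups overlapped (log2 fold change 0.93 ± 0.32, FDR = 0.285). There the call depended on the model, with an FDR of 0.00241 with the batch as a block and of 0.0385 with DESeq2. Inside cluster 4 the order of the medians was the opposite, 415, 751 and 2059 CPM with FGF1 against 459, 1224 and 2451 with vehicle, and the groups overlapped widely (-0.49 ± 0.49, FDR = 0.873). With fixed cluster shares the log2 difference of Gfap went from 2.33 to -0.31. Of other reactive genes, Cd44, a hyaluronan receptor, went from 2.92 to 1.14, Serpina3n, a protease inhibitor, from 2.41 to 1.19, and Vim from 2.07 to 0.70. Vim passed inside cluster 1 as well (1.05 ± 0.24, FDR = 0.0217), at 8.17% of its pooled level, and not inside cluster 4 (0.50 ± 0.33, FDR = 0.734).

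A small group of astrocyte genes rose inside both clusters. Aqp4, the water channel of astrocyte end-feet, was at 382, 447 and 711 CPM with FGF1 and 217, 265 and 304 with vehicle in cluster 1 (0.94 ± 0.14, FDR = 0.000192), and at 674, 1000 and 1172 and 399.9, 518 and 741 in cluster 4 (0.83 ± 0.14, FDR = 0.000249). The groups did not overlap in cluster 1, and in cluster 4 FGF1 mouse 36 lay below vehicle mouse 20. Clu, which encodes a secreted lipid-binding chaperone, rose by 0.78 ± 0.15 on the log2 scale in cluster 1 (FDR = 0.011) and by 0.70 ± 0.13 in cluster 4 (FDR = 0.00293). Abca1, the pump that loads cholesterol onto lipoproteins, was at 200.1, 255 and 358 CPM against 112, 138 and 194 in cluster 1, without overlap (0.96 ± 0.16, FDR = 0.000383), and rose in cluster 4 as well (0.73 ± 0.18, FDR = 0.0383, or 0.106 with the batch as a block). With Lcat, which esterifies cholesterol on those particles (0.90 ± 0.19, FDR = 0.0103 in cluster 1), 3 of 9 tested lipoprotein and lipid export genes rose in cluster 1 and none fell, beside 0.221% of all tested genes. In cluster 4 the 3 of 8 that rose were Clu, Abca1 and Fabp7 (all genes, 0.218%). Fabp7, a fatty acid binding protein of radial glia and astrocytes, was at 459, 488 and 574 CPM with FGF1 and 111, 222 and 334 with vehicle, without overlap (1.04 ± 0.16, FDR = 0.000108). With fixed cluster shares these genes stayed higher, with Abca1 going from 0.99 to 0.89, Fabp7 from 1.05 to 0.86, Clu from 1.08 to 0.77 and Aqp4 from 1.62 to 0.88.

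**Figure D3:**
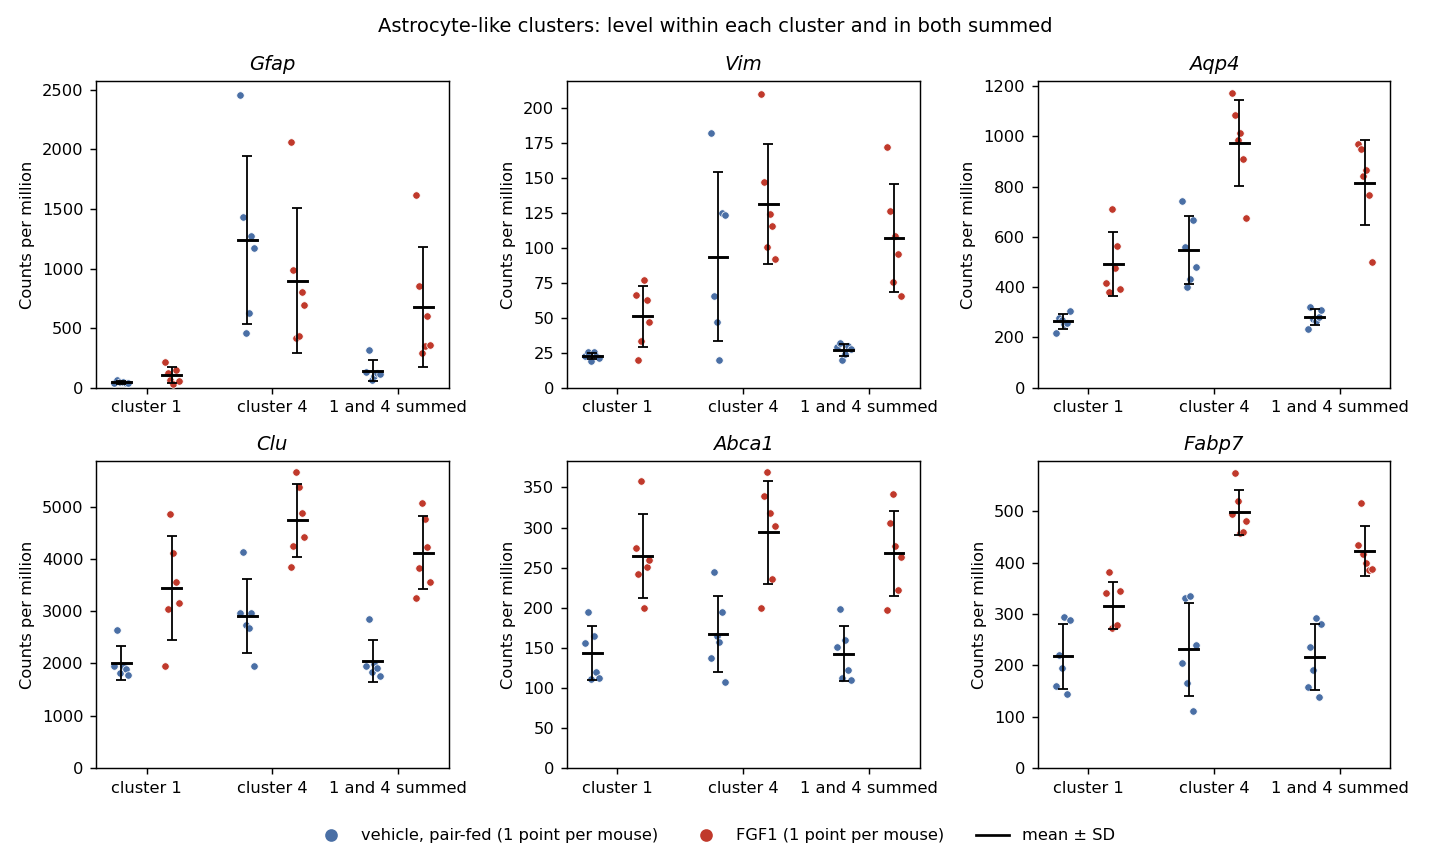
Level in CPM (y axis, from 0) of Gfap, Vim, Aqp4, Clu, Abca1 and Fabp7 in cluster 1, in cluster 4 and in both summed, with 1 point per mouse, vehicle beside FGF1, and bars for mean ± SD. Gfap overlaps between the groups inside each cluster and, with vehicle mouse 22 at 318 CPM above FGF1 mouse 10 at 291, in the sum, while Abca1 in cluster 1 and Fabp7 in cluster 4 separate inside a cluster.

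Other genes changed within a single astrocyte cluster or with lower levels. In cluster 1, Plat, which encodes tissue plasminogen activator, was at 61.6, 102 and 172 CPM with FGF1 and 37.3, 43.0 and 51.3 with vehicle (1.46 ± 0.18, FDR = 2.17e-06), and the orphan receptor gene Gpr179 rose (0.99 ± 0.23, FDR = 0.0339). Some enzymes of the cholesterol pathway fell in cluster 1, among them Idi1 (-1.24 ± 0.22, FDR = 0.00129) and Fdft1 (-0.92 ± 0.21, FDR = 0.0213). Of 23 tested sterol genes, 3 were lower and 0 higher, beside 0.182% of all genes lower. Their median log2 fold change was -0.55, against -0.01 over all genes. With the batch as a block 6 of the 23 were lower.

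Neat1, a nuclear long RNA, fell in both astrocyte clusters, from 204, 245 and 272 CPM to 30.8, 108 and 155 in cluster 1 (-1.01 ± 0.17, FDR = 0.000529) and by 1.11 ± 0.18 in cluster 4 (FDR = 0.000149, at 46.7% of its pooled level). Tsc22d3, which glucocorticoids induce, was at 259, 421 and 482 CPM with FGF1 and 570.3, 689 and 915 with vehicle in cluster 4 (-0.86 ± 0.14, FDR = 0.000122) and lower in cluster 1 (-0.62 ± 0.13, FDR = 0.0116). Ppp1r1b, a phosphatase inhibitor gene, fell in cluster 4 (-1.19 ± 0.26, FDR = 0.0172). S100a11, a calcium-binding protein gene, and Bcas1, a gene of young oligodendrocytes, were higher in cluster 4 (1.46 ± 0.32, FDR = 0.0172, and 1.10 ± 0.26, FDR = 0.0362) at 45.6% and 50.1% of their pooled level. The neuron genes Meg3 in cluster 1 (-1.10 ± 0.20, FDR = 0.0038) and Snap25 in cluster 4 (-0.99 ± 0.24, FDR = 0.0383, or 0.133 with the batch as a block, lost with 20% limits) were lower. The summed neuron markers, which include Meg3 and Snap25 themselves, ran from 199 to 442 CPM with FGF1 against 389 to 723 with vehicle in cluster 1 and from 213 to 437 against 384 to 1149 in cluster 4.

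The FGF1 effect differed between clusters 1 and 4 for 2 genes (interaction of cluster and treatment with the mouse as a block, on the log2 scale, here and below as the effect in the cluster with the higher number minus that in the other). Igfbp5, an insulin-like growth factor binding protein gene, had a difference of -1.0 ± 0.18, FDR = 0.000276, going from 88.2 CPM with vehicle to 104 with FGF1 in cluster 1 and from 429 to 286 in cluster 4. A2m, a protease inhibitor gene, had a difference of -1.91 ± 0.41, FDR = 0.0154. The low number of calls does not show that the clusters responded alike.

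In tanycytes the merged and the cluster view lay close together. Clusters 0, 7 and 10 summed gave 533 DEGs of 10494 (5.08%), and 683 (6.51%) with the batch as a block. With fixed cluster shares their median absolute log2 difference went from 0.66 to 0.64, in the 5 FGF1 mice with cells in all 3 clusters. The number at a factor of 2 or more went from 99 to 90, and 0 changed sign. No gene had an effect that differed between clusters 0 and 7, 0 and 10 or 7 and 10 at an FDR under 0.05. At an unadjusted p under 0.05 there were 502, 297 and 204 genes, and with no count filter 8, 4 and 1 genes passed the FDR.

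Many sterol synthesis genes fell in cluster 0. Hmgcs1, an early enzyme of the pathway (chr13:119690379-119708260), was at 79.9, 108 and 121 CPM with FGF1 and at 178, 214 and 264 with vehicle, and the groups did not overlap (-1.07 ± 0.13, FDR = 2.75e-06). The later enzyme Msmo1 fell as well (-0.74 ± 0.14, FDR = 0.00197). In all, 11 of 23 tested sterol genes were lower and 0 higher, beside 2.64% of all genes. Their median log2 fold change was -0.65, against 0.00 over all genes. Of 12 tested fatty acid synthesis genes, 3 were lower and 0 higher, namely the desaturase Scd2 (-0.71 ± 0.12, FDR = 0.000577), the synthase Fasn (-0.48 ± 0.12, FDR = 0.0195) and the elongase Elovl6 (-0.84 ± 0.24, FDR = 0.0328, or 0.0511 with the batch as a block, lost with DESeq2 and no count filter). Of the 11 sterol genes, 1 was at or above its pooled level in cluster 0, and Hmgcs1 was at 98.9% of its own. Scd2 was lower in cluster 7 (-0.73 ± 0.16, FDR = 0.0177) and cluster 10 (-0.64 ± 0.14, FDR = 0.00881, lost with no count filter) too. Insig1, a sterol sensor, was the sole sterol gene of 6 tested to pass in cluster 7 (-0.84 ± 0.22, FDR = 0.0275, or 0.0643 with the batch as a block, lost with DESeq2 and no count filter). In ependymal-like cluster 6 Hmgcs1 was lower (-0.97 ± 0.19, FDR = 0.0031). Over the 16 tested clusters, 18 of 163 sterol tests were lower and 0 higher, and 8 of 116 fatty acid synthesis tests were lower and 0 higher (all genes lower 0.896%).

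Genes of the circadian clock and its direct output were also among those that fell. The promoter stretches of the clock genes that hold the E-box CACGTG, the sequence that the clock activators bind, and of Hmgcs1, which holds a sterol regulatory element, are shown to place these genes. They come from the RefSeq promoters of GRCm38.p6, from 250 bases before to 50 after the gene start, are read 5′ to 3′ on the gene's strand, and the capitals mark 1 motif a line. The last 2 Ciart stretches overlap, so each also holds the other's motif in lower case, and Tef has 2 annotated starts:
Ciart, chr3:95882324-95882359, minus strand: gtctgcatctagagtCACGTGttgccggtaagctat
Ciart, chr3:95882266-95882301, minus strand: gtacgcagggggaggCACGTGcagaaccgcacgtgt
Ciart, chr3:95882252-95882287, minus strand: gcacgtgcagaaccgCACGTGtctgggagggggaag
Bhlhe41, chr6:145865553-145865588, minus strand: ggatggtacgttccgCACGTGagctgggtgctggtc
Cry1, chr10:85185094-85185129, minus strand: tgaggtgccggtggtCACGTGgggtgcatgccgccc
Per1, chr11:69098768-69098803, plus strand: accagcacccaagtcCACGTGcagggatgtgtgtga
Tef, chr15:81811261-81811296, plus strand: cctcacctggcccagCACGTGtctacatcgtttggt
Tef, chr15:81802531-81802566, plus strand: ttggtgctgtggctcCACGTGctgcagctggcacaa
Hmgcs1, chr13:119690199-119690237, plus strand: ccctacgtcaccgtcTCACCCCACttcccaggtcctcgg
CACGTG, searched on both strands, was in the promoters of 5 of 12 matched clock genes (41.7%) and of 7.15% of all 32851 promoters, and the element TCACNCCAC in those of 1 of 17 matched sterol genes (5.88%) and of 1.24% of all. A listed gene counted if any of its annotated starts held the motif, whereas the share of all is per promoter, so these percentages are not like for like. The 5 clock genes were Bhlhe41, Ciart, Cry1, Per1 and Tef, and Dbp, Per2 and Per3 were not among them. A match is a description of these letters and not of binding.

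In cluster 0, 7 of 13 tested clock genes were lower and 0 higher (median log2 fold change -0.52, all genes lower 2.64%). Dbp, an output transcription factor, was at 53.2, 64.6 and 71.7 CPM with FGF1 and 89.9, 109 and 156 with vehicle, without overlap (-0.88 ± 0.14, FDR = 0.000308). Ciart, a clock repressor with low counts, was at 2.53, 7.12 and 11.2 CPM against 12.0, 17.9 and 29.5, also without overlap (-1.47 ± 0.28, FDR = 0.00172). The repressor genes Per2 (-1.15 ± 0.25, FDR = 0.00578) and Per3 (-0.54 ± 0.13, FDR = 0.00933) fell as well, and the other 3 were Bhlhe41, Tef and Cry1. In cluster 7 Dbp (-1.33 ± 0.19, FDR = 5.84e-05), Tef (-0.84 ± 0.18, FDR = 0.00864, lost with no count filter) and Per3 (-0.66 ± 0.18, FDR = 0.0483, or 0.052 with the batch as a block, lost with DESeq2, no count filter and 30 cells) were lower among 9 tested (all genes lower 0.968%). In cluster 10 Dbp (-0.92 ± 0.22, FDR = 0.0206, lost with no count filter) and Tef (-0.87 ± 0.20, FDR = 0.0139, lost with no count filter) were lower among 7 (all genes lower 1.16%). In ependymal-like cluster 6 Per1 (-0.96 ± 0.20, FDR = 0.00938) and Per2 (-1.30 ± 0.30, FDR = 0.0219) were lower among 12 (all genes lower 0.743%). In oligodendrocyte-like cluster 2 Bhlhe41 (-0.92 ± 0.16, FDR = 0.00329) and Tef (-0.74 ± 0.16, FDR = 0.0211) were lower among 10 (all genes lower 0.348%). Over the 16 clusters, 17 of 106 clock tests were lower and 0 higher (all genes lower 0.896%). The study's methods give a morning window for taking the brains used for nuclei and refer back to that dissection for whole cells. The hour of each mouse was not in the sources used here, and its part in these values was not tested.

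**Figure D4:**
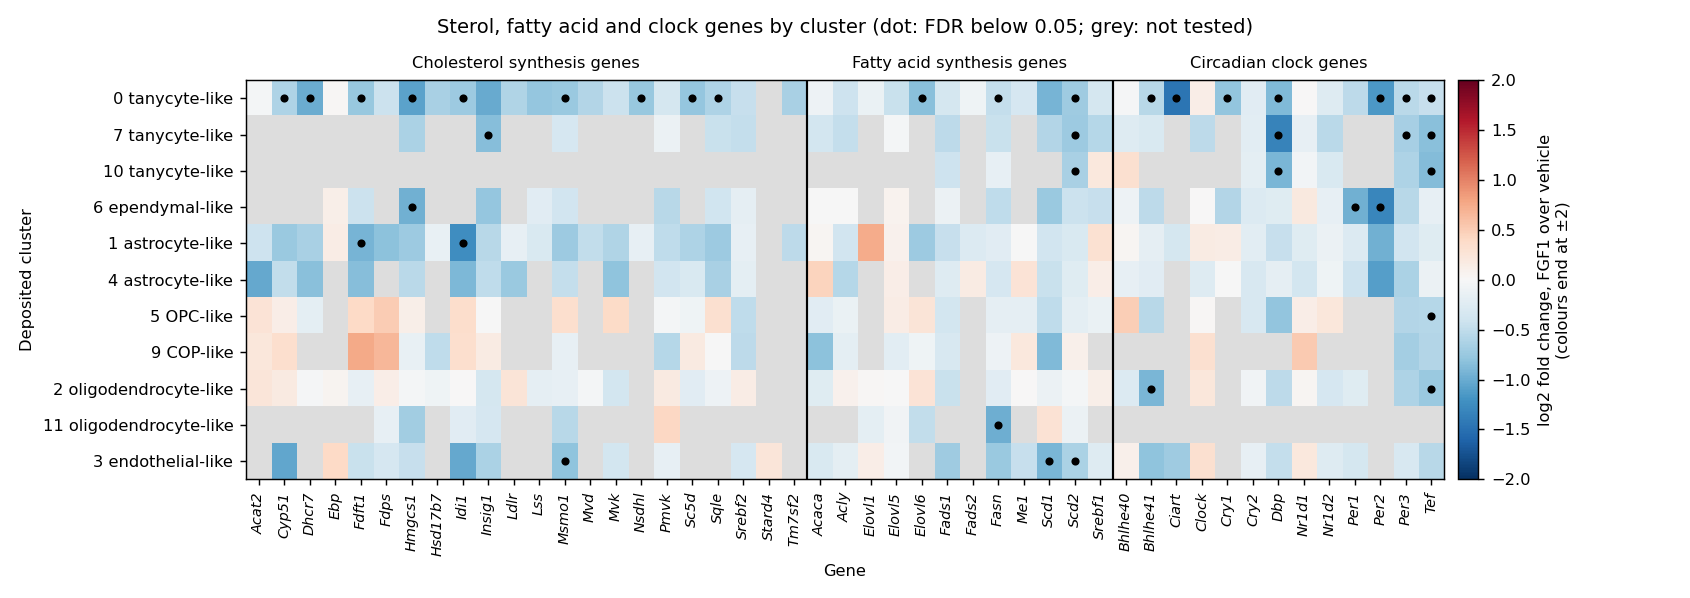
Log2 fold change of FGF1 over vehicle (colour, ending at ±2) for most of the sterol synthesis genes and for fatty acid synthesis and clock genes (columns) in 11 clusters (rows), with a dot where FDR was under 0.05 and grey where a gene was not tested. The dots stand on blue cells in all 3 lists, and cluster 0 has 3 of them for fatty acid synthesis and 7 for clock genes.

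Ribosomal protein genes were higher in cluster 0 in 32 of 89 cases and lower in 0 (all genes higher 2.64%) at a median log2 fold change of 0.30, and 31 of the 32 were at or above their pooled level. Rps4x rose by 0.65 ± 0.10 (FDR = 0.000243) and Rplp0 by 0.72 ± 0.12 (FDR = 0.000317). In cluster 10, 9 of 86 rose (all genes higher 0.973%), Rps4x among them (0.70 ± 0.12, FDR = 0.00206). In cluster 7, 4 of 89 rose (all genes higher 0.968%). The share of ribosomal counts per cell in cluster 0 was 15.3 ± 0.636% with FGF1 and 14.0 ± 0.753% with vehicle (exact permutation test, p = 0.00649, FDR = 0.104 over the tested clusters). Over all cells it was 12.5% and 11.4% (p = 0.0606 by the same exact test), whereas in cluster 2 it was 9.74% and 10.8%.

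Several genes of glial reactivity rose in tanycytes. Vim, the filament of tanycyte processes, was at 619, 733 and 907 CPM with FGF1 and at 276, 370.2 and 425 with vehicle in cluster 0, without overlap (1.06 ± 0.12, FDR = 1.46e-06). It also rose in cluster 7 (1.00 ± 0.14, FDR = 5.84e-05) and cluster 10 (0.74 ± 0.16, FDR = 0.0104). Cd44 rose in cluster 0 (1.18 ± 0.14, FDR = 2.75e-06) and cluster 7 (0.79 ± 0.20, FDR = 0.0272, or 0.052 with the batch as a block). S1pr3, a lipid receptor gene (1.04 ± 0.17, FDR = 0.000357), Emp1, a membrane protein gene (1.41 ± 0.26, FDR = 0.00144), and the chemokine gene Cxcl10 (2.28 ± 0.52, FDR = 0.0126) rose in cluster 0. There, 4 of 7 tested pan-reactive genes were higher and 0 lower (all genes higher 2.64%), 3 of the 4 at or above their pooled level. Cxcl10 was at 5.92, 13.6 and 47.9 CPM with FGF1 and 0, 1.46 and 13.3 with vehicle, so that its groups overlapped. Its highest value came from FGF1 mouse 6, and its level was 52.8% of the pooled one. Gfap, outside the naming rule, was not called in cluster 0 (1.06 ± 0.48, FDR = 0.253).

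Of the S100 and annexin genes, whose products bind calcium and membranes, 6 of 14 rose in cluster 0, 4 of 12 in cluster 7 and 3 of 10 in cluster 10, where 1 fell. The shares of all genes that were higher were 2.64%, 0.968% and 0.973%. S100a11 rose in cluster 0 (1.17 ± 0.20, FDR = 0.00371), cluster 7 (1.15 ± 0.16, FDR = 5.84e-05) and cluster 10 (1.41 ± 0.30, FDR = 0.00881). Anxa2 rose in cluster 0 (0.62 ± 0.12, FDR = 0.00167) and Anxa5 in cluster 10 (0.75 ± 0.16, FDR = 0.00881). The other genes that led cluster 0 by size were Synpo, an actin-binding protein gene (1.67 ± 0.28, FDR = 0.000399), 6030407O03Rik (1.52 ± 0.26, FDR = 0.000516) and Lyz2, the lysozyme of macrophages (2.91 ± 0.28, FDR = 1.81e-07). Lyz2 was at 50.5% of its pooled level. The summed macrophage markers in cluster 0, a sum that includes Lyz2 itself, ran from 27 to 52 CPM with FGF1 and from 5 to 16 with vehicle.

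Among the genes by which tanycytes are known, 3 of 16 rose in cluster 0 and 0 fell (all genes higher 2.64%), and with the batch as a block 1 of these 3 calls held. They were Crym, a thyroid hormone binding protein gene (0.55 ± 0.12, FDR = 0.00569), and Gpr50, a melatonin-related receptor gene (0.44 ± 0.13, FDR = 0.0392, or 0.0501 with the batch as a block, lost with DESeq2 and 20% limits). The remaining gene was Prdx6, a peroxiredoxin gene (0.35 ± 0.10, FDR = 0.0383, or 0.06 with the batch as a block, lost with 20% limits). In cluster 7 Gpr50 rose (0.66 ± 0.16, FDR = 0.0207, or 0.063 with the batch as a block) and Deptor, an inhibitor of mTOR, fell (-0.70 ± 0.17, FDR = 0.0234, lost with no count filter and 30 cells). In cluster 10 Rax, the tanycyte homeobox factor, fell (-1.09 ± 0.30, FDR = 0.0463, lost with no count filter and 30 cells). Cluster 7 was further led by Cdh13, a cadherin gene that rose (1.38 ± 0.30, FDR = 0.00864), and by Adcy2, an adenylyl cyclase gene that fell (-1.30 ± 0.22, FDR = 0.000805). Ifi27 in cluster 7 (0.60 ± 0.14, FDR = 0.0175) was the single call among 109 tests of interferon response genes over all clusters, near the 0.854% of all tests that were higher.

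Many transporter genes typical of astrocytes were lower in tanycytes. In cluster 0, 10 of 18 tested uptake, water and potassium genes were lower (all genes lower 2.64%), 2 of them at or above the pooled level. They included Glul, glutamine synthetase (-0.86 ± 0.12, FDR = 3.56e-05), and Slc1a2, a glutamate transporter (-0.80 ± 0.11, FDR = 4.64e-05). In cluster 7, 5 of 16 fell (all genes lower 0.968%) and in cluster 10, 7 of 15 (all genes lower 1.16%), none of them at the pooled level, with Slc1a2 at 29.2% of it in cluster 10. Itih3 was lower there too (-1.57 ± 0.24, FDR = 0.000684, 17.9% of its pooled level). The summed astrocyte markers in cluster 0 ran from 2192 to 3004 CPM with FGF1 and from 3722 to 4844 with vehicle. In cluster 7 they ran from 1476 to 1845 and 1982 to 2981, and in cluster 10 from 798 to 1166 and 1268 to 2605. The groups of these sums did not overlap, in the same direction as the sum over all cells. The summed markers include Slc1a2, Aqp4, Gja1, Slc6a11 and Aldh1l1 of the uptake, water and potassium list, so they are not separate from these genes. The part of free astrocyte RNA in the 3 clusters was not tested. In cluster 10 the neuron markers were high in both groups, from 4653 to 6073 and 5085 to 6169 CPM.

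Tanycyte-like cluster 0 differed in its response from astrocyte-like cluster 1 for 293 genes and from ependymal-like cluster 6 for 18. Of the 293 differences 112 were above 0 and 181 below, a balance that RLE scaling turned to 147 and 106. Against cluster 1 the lowest FDR values were those of Itih3 (1.01 ± 0.14, FDR = 8.87e-10), Actg1, a cytoplasmic actin (-0.94 ± 0.13, FDR = 3.31e-09), and Chil1, a chitinase-like protein gene (1.55 ± 0.22, FDR = 1.24e-08). Actg1 went from 839 CPM with vehicle to 1072 with FGF1 in cluster 0 and from 739.6 to 455 in cluster 1. Against cluster 6 they were those of Plat (-1.70 ± 0.26, FDR = 1.67e-06), Pvalb, a calcium buffer (1.95 ± 0.29, FDR = 1.67e-06), and Creb5, a transcription factor gene (-1.35 ± 0.25, FDR = 0.000366). Plat went from 13.7 to 26 CPM in cluster 0 and from 98.1 to 62.7 in cluster 6. Itih3 was at 31.9% of its pooled level in cluster 0 and 409% in cluster 1, Actg1 at 98.6% and 70.8%, and Chil1 at 130% and 185%. Plat was at 29.2% of its pooled level in cluster 0 and 124% in cluster 6, Pvalb at 70.9% and 226%, and Creb5 at 55% and 88.4%. The part of free RNA in these differences was not tested.

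In ependymal-like cluster 6 the largest changes without overlap were falls of Etnppl, which breaks down phosphoethanolamine (-1.73 ± 0.20, FDR = 1.91e-05), of the neuron gene Syt1 (-1.52 ± 0.27, FDR = 0.00113) and of Atxn7 (-1.35 ± 0.25, FDR = 0.00133). The largest rises without overlap were those of RP24-136L4.5 (1.38 ± 0.26, FDR = 0.00152), S100a11 (0.67 ± 0.15, FDR = 0.0145) and 0610011F06Rik (0.66 ± 0.18, FDR = 0.0484, lost with DESeq2, 30 cells and 20% limits). Meig1 was the single motile cilium gene of 28 tested that passed (0.59 ± 0.15, FDR = 0.0413, all genes higher 0.535%). Abca1 rose here as in astrocytes (0.74 ± 0.17, FDR = 0.0145), as did Lgals3, the galectin of reactive cells (0.84 ± 0.17, FDR = 0.00571). Ependymal cells of FGF1 mouse 6 were 19 in number, and the count of DEGs in this cluster ran from 30 to 151 with any 1 mouse left out.

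OPC-like cluster 5 had its strongest change in Fabp7 (chr10:57784881-57788450), which was at 1351, 1749 and 2362 CPM with FGF1 and at 555, 580.0 and 791 with vehicle. The lowest FGF1 mouse lay well above the highest vehicle mouse (1.54 ± 0.13, FDR = 1.29e-10), and Fabp7 was at 498% of its pooled level in this cluster. Vim (1.94 ± 0.21, FDR = 1.23e-08), Clic1, a chloride channel gene (1.38 ± 0.24, FDR = 0.00056), and S100a10 (1.36 ± 0.18, FDR = 1.24e-06) rose by more than 1 on the log2 scale, at 17.5%, 26.2% and 62.2% of their pooled level. The immediate early genes Egr1 (1.06 ± 0.23, FDR = 0.0313) and Fos (0.47 ± 0.13, FDR = 0.0393) were the 2 calls of 13 tested here (all genes higher 1.2%) and of 208 tests in all clusters, and both were below their pooled level. Ccnd1, cyclin D1 (0.55 ± 0.12, FDR = 0.00969), and Ldha, lactate dehydrogenase (0.80 ± 0.15, FDR = 0.00143), were higher.

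The secreted protein gene C1ql1 (-0.60 ± 0.13, FDR = 0.00724) and the lineage transcription factor Olig2 (-0.46 ± 0.11, FDR = 0.016) were lower in the same cluster, the 2 calls of 16 tested OPC genes (all genes lower 1.18%), and Neu4, a sialidase of the COP stage, was lower too (-0.43 ± 0.12, FDR = 0.0452). The largest falls without overlap were those of Extl1 (-1.03 ± 0.24, FDR = 0.0142), Flywch2 (-1.01 ± 0.25, FDR = 0.0213) and the transcription factor gene Maf (-1.01 ± 0.25, FDR = 0.0218).

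COP-like cluster 9 rested on 16 to 51 cells per vehicle mouse against 174 to 372 per FGF1 mouse, and its 52 DEGs were 31 higher and 21 lower, or 18 higher and 26 lower with RLE in place of TMM scaling. Of 13 tested genes of committed and newly formed oligodendrocytes, 3 rose and 0 fell (all genes higher 0.743%), namely Bcas1 (0.56 ± 0.13, FDR = 0.0172), the kinase gene Fyn (0.52 ± 0.13, FDR = 0.0279) and the deacetylase gene Sirt2 (0.71 ± 0.12, FDR = 0.000518). Tuba1a, a tubulin of growing processes, was at 7458, 10439.5 and 12219.6 CPM with FGF1 and 3134, 4901 and 6787 with vehicle, without overlap (1.04 ± 0.15, FDR = 0.000357). Fabp5 (0.93 ± 0.16, FDR = 0.000518), S100b (0.51 ± 0.13, FDR = 0.0413, or 0.0502 with the batch as a block, lost with 20% limits) and the tetraspanin gene Cd9 (0.78 ± 0.18, FDR = 0.0322) rose. Cacng4, a gene of precursors for an auxiliary protein of AMPA receptors, fell (-1.43 ± 0.28, FDR = 0.00627), as did the adhesion gene Cntn1 (-1.11 ± 0.19, FDR = 0.000531), Anks1b (-1.32 ± 0.23, FDR = 0.000634) and Arhgef3 (-2.36 ± 0.47, FDR = 0.00518). The genes that led by size in the upward direction, Dusp19 (FDR = 0.0319, or 0.0602 with the batch as a block, lost with DESeq2), Pde9a (FDR = 0.0423, or 0.0502 with the batch as a block, lost with DESeq2 and 20% limits) and Creb3 (FDR = 0.0448, or 0.07 with the batch as a block, lost with DESeq2), rested on 3, 5 and 7 UMIs over all vehicle mice, so no fold change is given for them. With RLE scaling the FDR was 0.0597 for Fyn, 0.0712 for Cd9, 0.0856 for S100b, 0.057 for Pde9a and 0.0605 for Creb3, so these calls were lost.

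Oligodendrocyte-like cluster 11 held 17 to 56 cells per vehicle mouse. Its median cell had 1600 ± 464 UMIs with FGF1 and 2158 ± 567 with vehicle (exact permutation test, p = 0.0952, FDR = 0.968 over the tested clusters). Its mitochondrial share was 11.4 ± 1.80% against 9.24 ± 1.49% (p = 0.0411, FDR = 0.561 by the same exact test), and the part of either in the values below was not tested. Mag, an adhesion protein of the innermost myelin layer (chr7:30899176-30914873), was at 1788, 2057 and 2455 CPM with FGF1 and at 2567, 4193 and 5624 with vehicle, without overlap (-0.98 ± 0.15, FDR = 6.27e-05). Trf, transferrin, rose (0.72 ± 0.21, FDR = 0.042, lost with 20% limits). In all, 1 of 20 myelin genes was higher and 2 were lower (all genes higher 2.67% and lower 3.97%). Nfasc, neurofascin (-1.11 ± 0.20, FDR = 0.00129), and Sirt2 (-0.56 ± 0.13, FDR = 0.00699, lost with no count filter) were lower, the 2 calls of 4 tested genes of newly formed oligodendrocytes. Il33, a nuclear alarmin of mature oligodendrocytes (chr19:29925114-29960718), was at 458, 762 and 911 CPM with FGF1 and 70.9, 213 and 344 with vehicle, without overlap (1.95 ± 0.27, FDR = 0.000114).

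Cluster 11 further showed falls of Mgll, monoacylglycerol lipase (-1.94 ± 0.29, FDR = 6.27e-05), the stress gene Ddit4 (-1.79 ± 0.33, FDR = 0.00285), Pdxk, pyridoxal kinase (-1.09 ± 0.25, FDR = 0.00551, lost with no count filter) and Fasn (-0.97 ± 0.25, FDR = 0.0123, lost with no count filter). Polr1d, an RNA polymerase subunit gene, rose (1.26 ± 0.29, FDR = 0.00621), and S100a6 rose (1.63 ± 0.26, FDR = 0.000111) at 12.9% of its pooled level.

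**Figure D5:**
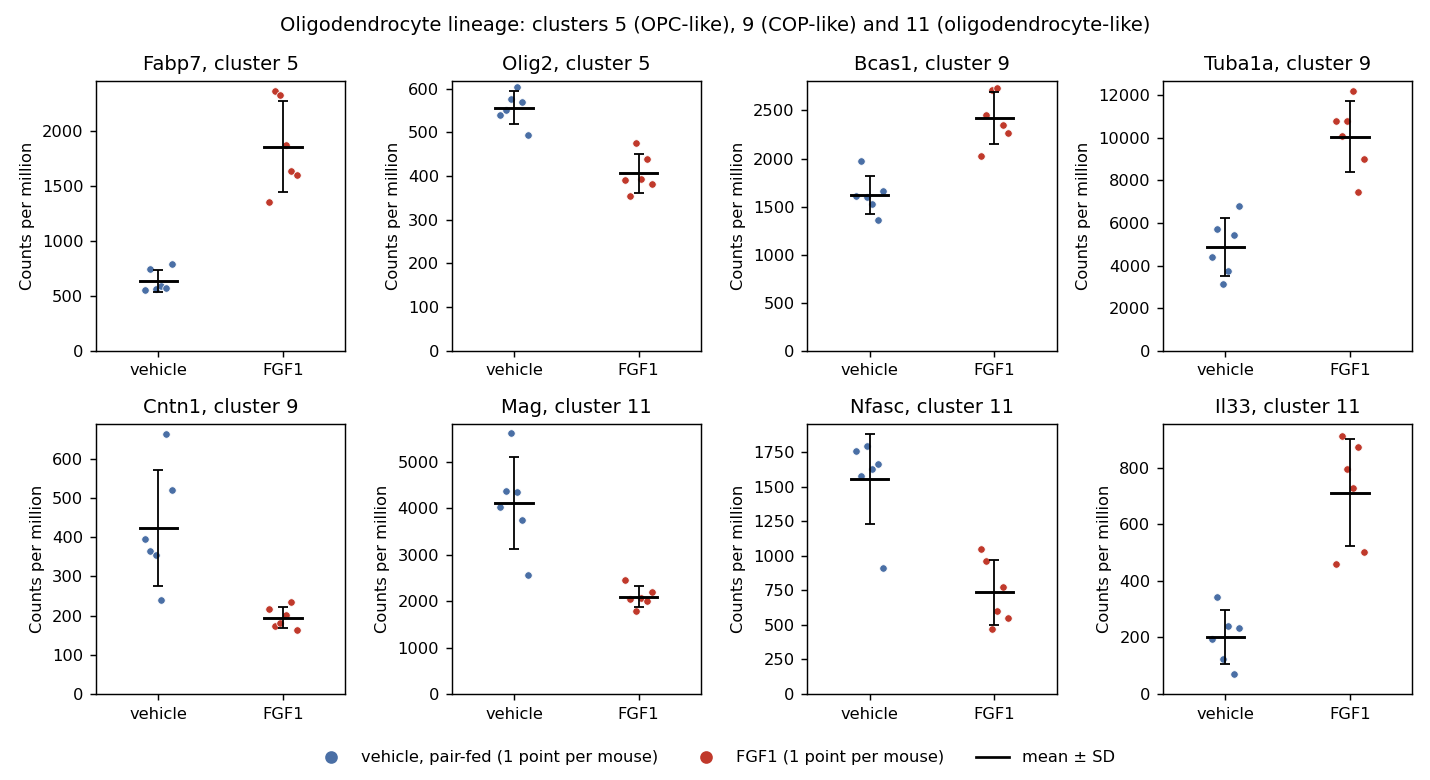
Level in CPM (y axis, from 0) of 8 genes in OPC-like cluster 5, COP-like cluster 9 and oligodendrocyte-like cluster 11, with 1 point per mouse, vehicle beside FGF1, and bars for mean ± SD. Fabp7 in cluster 5, Tuba1a in cluster 9 and Il33 in cluster 11 lie higher and Mag in cluster 11 lower in every FGF1 mouse than in any vehicle mouse.

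The large oligodendrocyte-like cluster 2 had 40 higher and 25 lower genes. The largest falls without overlap were those of Arl4d, a small GTPase gene (-1.61 ± 0.22, FDR = 9.69e-05), and 2900052N01Rik (-1.69 ± 0.30, FDR = 0.0106). The largest rises, Crym (2.10 ± 0.31, FDR = 0.00403), Vim (1.87 ± 0.23, FDR = 0.000143) and the cilium gene Dynlrb2 (1.64 ± 0.21, FDR = 8.74e-05), are genes of ventricular cells at 19.1%, 15.9% and 16.3% of their pooled level. The summed tanycyte markers in cluster 2, a sum that includes Crym itself, ran from 227 to 640 CPM with FGF1 and from 54 to 221 with vehicle. In cluster 12, with 4 FGF1 mice, Apod, an apolipoprotein gene, was higher (0.81 ± 0.16, FDR = 0.0185, lost with no count filter), the single gene called in that direction (0.0444% of the tested genes). Summed, clusters 2, 11 and 12 gave 190 DEGs of 8438 (2.25%), and 348 with the batch as a block. With fixed cluster shares the median absolute log2 difference of the 190 went from 0.78 to 0.58, in the 4 FGF1 mice with cells in all 3 clusters.

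Along the lineage, the FGF1 effect differed between clusters 2 and 11 for 130 genes, 66 above 0 and 64 below (49 and 75 with RLE scaling), with Nfasc (-1.33 ± 0.16, FDR = 1.43e-09), Plat (-2.69 ± 0.38, FDR = 1.64e-07) and Gatm, an enzyme of creatine synthesis (0.78 ± 0.13, FDR = 2.33e-05), lowest in FDR. Gatm went from 1798 CPM with vehicle to 1914 with FGF1 in cluster 2 and from 1165 to 2141 in cluster 11. Between clusters 11 and 12 it differed for 36 genes, led by Nfasc (1.40 ± 0.22, FDR = 4.45e-06), Sirt2 (1.10 ± 0.18, FDR = 1.63e-05) and Mag (1.09 ± 0.18, FDR = 1.82e-05). Mag went from 3911 to 2003 CPM in cluster 11 and from 1730.0 to 1923 in cluster 12. Between clusters 2 and 12 it differed for 13 genes, with Apod (0.88 ± 0.13, FDR = 5.4e-06) and the transporter genes Slc4a4 (-1.26 ± 0.25, FDR = 0.00421) and Slc6a11 (-1.02 ± 0.21, FDR = 0.00463) lowest in FDR. Apod was at 333% of its pooled level in cluster 2 and 387% in cluster 12, Slc4a4 at 66.1% and 40.3%, and Slc6a11 at 61% and 37%. In clusters 2 and 11 Plat was at 38.2% and 97.1% of its pooled level, Nfasc at 139% and 308%, and Gatm at 325% and 370%. The part of free RNA in these differences was not tested.

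Against COP-like cluster 9 the FGF1 effect differed for 153 genes in cluster 2 and for 92 in OPC-like cluster 5. Of these, 121 differences were above 0 and 32 below in the first pair, and 61 and 31 in the other, whereas RLE scaling gave 20 and 37, and 19 and 41, so the balance turned. The cytoskeletal genes Actb (0.96 ± 0.14, FDR = 2.18e-08), Tubb2b (1.30 ± 0.20, FDR = 2e-07) and Actg1 (0.99 ± 0.16, FDR = 7.05e-07) led against cluster 2. The leading genes against cluster 5 were Fabp5 (1.33 ± 0.16, FDR = 6.5e-13), S100b (0.98 ± 0.12, FDR = 8.28e-12) and Tubb2b (1.2 ± 0.15, FDR = 1.17e-11). Tubb2b, a tubulin of immature cells, went from 561 CPM with vehicle to 1835 with FGF1 in cluster 9 and from 458 to 599.9 in cluster 5. Without the mouse as a block these counts were 2 and 13 against cluster 0 (clusters 6 and 1), 0 between clusters 1 and 4 and between 2 and 12, 18 between 2 and 11, 2 between 11 and 12, and 29 and 14 against cluster 9.

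In endothelial-like cluster 3, 13 of the 60 DEGs were at or above their pooled level, among them Ptprr, a tyrosine phosphatase gene (1.09 ± 0.21, FDR = 0.00891, 764% of its pooled level), and Tm4sf1, an endothelial membrane protein gene (0.49 ± 0.12, FDR = 0.032, 461%). The other genes that led by size were below the pooled level or close to it, namely Meig1 (1.39 ± 0.24, FDR = 0.00339, 19.2%) and Gfap (1.26 ± 0.24, FDR = 0.0113, 47.4%), which rose. F3, tissue factor (-1.28 ± 0.23, FDR = 0.00784, 34.4%), and Dact3 (-1.35 ± 0.26, FDR = 0.00891, 70.2%) fell. The summed astrocyte markers in this cluster ran from 1251 to 2312 CPM with FGF1 and from 1989 to 3399 with vehicle.

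Microglia-like cluster 8 had 7 lower and 0 higher genes (7 and 2 with RLE scaling), among them the glutathione transferase genes Gstm5 (-1.14 ± 0.20, FDR = 0.0211, lost with 20% limits) and Gstm1 (-1.07 ± 0.21, FDR = 0.0244, lost with 20% limits), at 51.6% and 44.5% of their pooled level. Another was 2900052N01Rik (-1.67 ± 0.32, FDR = 0.0244). With the cells over the 20% limits left out the count was 0, and with any 1 mouse left out it ran from 0 to 60. The astrocyte markers in cluster 8 summed to 1274 to 2960 CPM with FGF1 and 1819 to 3841 with vehicle. No antigen presentation gene (70 tests) and no complement gene (46 tests) passed in any cluster. Over all genes 0.854% of tests were higher and 0.896% lower, so 0 calls in lists of this length lie near that share.

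A few genes were called in many clusters with the same direction. Gstm1 was lower in 10 clusters and had a negative log2 fold change in 16 of 16 tested. 2900052N01Rik, a long noncoding RNA (chr9:46913493-46927366), was lower in 7 clusters and negative in 8 of 8. In cluster 0 the latter was at 12.2, 19.3 and 27.0 CPM with FGF1 and 37.2, 68.9 and 101 with vehicle (-1.93 ± 0.20, FDR = 6.68e-07). Etnppl and Itih3 were lower in 6 clusters each. S100a11, Vim and Tuba1a were higher in 7 clusters each, and Eef1a1, a translation elongation factor gene, and S100a6 in 6 each. Sirt2 was higher in 6 clusters and lower in cluster 11. Some of these calls were in clusters where the gene lay below its pooled level, as given above for Vim, Itih3, S100a6 and Gstm1. The number of clusters is therefore not a number of cell types that responded, and the part of free RNA was not tested.

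Among genes close to the ligand, 1 FGF receptor test and 1 MAPK feedback test passed at this time. Over all tested clusters 0.854% of all tests were higher and 0.896% lower. Counts this low in short lists lie near that share and are no result about these genes. Of the FGF receptor genes, Fgfr3 in cluster 0 was the single call among 33 tests, at 74.5, 98.2 and 141 CPM with FGF1 and 133, 147 and 160.1 with vehicle (-0.50 ± 0.13, FDR = 0.0196), at 50.7% of its pooled level. Its log2 fold change was below 0 in 10 of 12 clusters tested, and in astrocyte-like clusters 1 and 4, where it was most abundant, it was 0.01 ± 0.12 and 0.02 ± 0.13. Fgfr1 ranged from -0.34 to 0.24 over 10 clusters and Fgfr2 from -0.49 to 0.21 over 8. Of 53 tests of MAPK feedback genes, which FGF signalling induces, the single call was Etv1 in cluster 11, at 506, 691 and 975 CPM with FGF1 and 182, 287 and 700.1 with vehicle, with overlap (1.03 ± 0.24, FDR = 0.0132). Etv5 was below 0 in 6 of 6 clusters and Spry2 in 6 of 7, with none past the test, and Spred1, tested in 13 clusters, ranged from -0.47 to 0.50.

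Other lists are given over the 16 clusters together, in which 0.854% of all tests were higher and 0.896% lower. Heat shock genes were higher in 11 of 145 tests and lower in 0, with Cryab, Hsp90ab1, Bag3 and Hspa8 among 13 in cluster 0. Genes that glucocorticoids induce were lower in 6 of 96 tests and higher in 0, and antioxidant genes were lower in 14 of 144 tests and higher in 5, and Gstm1 alone made 10 of the 14. Glycolysis genes were higher in 2 and lower in 3 of 202 tests, and nuclear-encoded oxidative phosphorylation genes higher in 5 and lower in 6 of 1197. Of the mitochondrially encoded genes 0 of 204 tests passed, of the A1 reactive astrocyte genes 0 of 44, and of the hypothalamic peptide genes, which neurons make, 0 of 29. The A2 reactive astrocyte genes, in contrast, were higher in 7 of 22 tests and the pan-reactive genes in 13 of 40, with 0 lower in either list. Vim alone made 7 of the 13, and in clusters 1, 2 and 5 it lay below its pooled level. Both lists were tested in clusters of every type, and Gfap passed in neither astrocyte-like cluster by the main test.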

How the data were processed

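Single cells of 12 hypothalami were profiled by 10x Genomics 3′ v2 scRNA-seq on a NextSeq 500. Per the study's methods and its processing notes, the authors made UMI counts per gene and cell with Cell Ranger 1.2 on GRCm38, filtered and clustered cells in Seurat, and discarded cells above 20% mitochondrial or ribosomal counts, although 4382 such cells are in the deposited table. The deposited counts were raw, their totals equalled those in the deposited metadata in 54890 of 54890 cells, and the mitochondrial and ribosomal share of each cell was a deposited percent. The authors' normalised values and the nuclear samples were not used here.

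Counts were summed per mouse and cluster, with at least 10 cells per mouse and 3 mice per group. DEGs were called with edgeR 4.0.16 (filterByExpr, TMM scaling, robust quasi-likelihood test, Benjamini-Hochberg FDR under 0.05 over all genes tested in a cluster) in R 4.3.3. A difference between clusters was the interaction of cluster and treatment with the mouse as a block, for 11 pairs chosen by kinship of type. Shares and depth per mouse were compared by two-sided exact permutation tests over all splits of 6 against 6 mice. Alternatives were DESeq2 1.42.0, RLE scaling, no count filter, at least 30 cells per mouse, cells within the 20% limits, each mouse left out and the deposited batch as a block. The deviations of batch mates had a median correlation between -0.039 and 0.027 over 12 clusters, with a highest single pair of 0.232 in cluster 0. Such a median does not speak for each pair or gene. With the block the count of DEGs rose in most tested clusters and fell in clusters 4 and 11. The block is given where it changed a call or moved a count by over 1.5 times. Genes at or above their pooled level, merged clusters and shares by name were chosen after seeing the data. Scripts were tested on simulated counts.

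The comparison, the 38 gene lists and the markers were chosen with earlier results of these data known. Genes named were, per cluster, the 3 largest changes in each direction among DEGs whose groups did not overlap, up to 4 called members of each list, the 10 genes called in most clusters, the 3 lowest FDR values of each pair, and any FGF receptor or MAPK feedback gene. Gfap in clusters 0, 1 and 4 lies outside this rule. A few genes that the rule names are not reported here. Gene positions are those of GENCODE on GRCm38. Vehicle mouse 35 carries a title that reads FP and was placed by its treatment label. The samples are separate mice, so p-values measure the spread between animals.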

Additional observations from a re-analysis of the deposited data

Results flagged for a closer look

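In 27 of 336 groups of 4 to 6 mice, the highest or the lowest mouse lay farther from its nearest neighbour, relative to the group's range, than Dixon's 95% critical value allows. Chance gives about 1 such case in 20 groups. Among the cluster shares these were vehicle mouse 22 in astrocyte-like cluster 4 (6.31%), FGF1 mouse 6 in ependymal-like cluster 6 (0.796%) and microglia-like cluster 8 (12%), vehicle mouse 35 in tanycyte-like cluster 7 (6.44%) and cluster 13 (3.31%), and vehicle mouse 20 in cluster 20 (0.24%).

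Gfap stood apart in FGF1 mouse 6 in cluster 4 (2059 CPM) and in endothelial-like cluster 3 (173 CPM) and in vehicle mouse 22 in cluster 0 (114 CPM). In cluster 0 Cxcl10 stood apart in FGF1 mouse 6 (47.9 CPM) and vehicle mouse 22 (13.3 CPM), Per2 in FGF1 mouse 6 (21.3 CPM), Glul in FGF1 mouse 28 (556 CPM), Slc1a2 in vehicle mouse 27 (2634 CPM) and S100a11 in vehicle mouse 35 (195 CPM). In cluster 1 Clu stood apart in vehicle mouse 22 (2648 CPM), Idi1 in vehicle mouse 35 (119 CPM) and Meg3 in FGF1 mouse 28 (160 CPM). In cluster 7 Gpr50 (1107 CPM) and Tef (64 CPM) stood apart in FGF1 mouse 21 and Dbp in vehicle mouse 27 (216 CPM). Abca1 stood apart in FGF1 mouse 6 in cluster 6 (39.8 CPM) and Flywch2 in vehicle mouse 29 in cluster 5 (41.2 CPM). In COP-like cluster 9 Fabp5 stood apart in FGF1 mouse 21 (1039 CPM) and Arhgef3 in vehicle mouse 29 (184 CPM). Nfasc stood apart in vehicle mouse 35 in cluster 11 (907 CPM) and Apod in FGF1 mouse 10 in cluster 12 (1940 CPM).

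The FGF1 effect differed between clusters, by the interaction test with the mouse as a block, for 293 genes between clusters 0 and 1, 18 between 0 and 6, 2 between 1 and 4, 130 between 2 and 11, 13 between 2 and 12, 36 between 11 and 12, 153 between 2 and 9 and 92 between 5 and 9.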

How the results depend on the processing

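The cluster shares that passed kept their direction in every other alternative run. Each batch held 1 mouse of each group, so the mean within-batch difference equals the difference of the group means. Its direction is therefore no separate check. The within-batch differences were -21.7 percentage points in cluster 1, -11.0 in cluster 2, 11.7 in cluster 4 and 6.54 in cluster 9. In clusters 11, 12 and 17 they were 4.36, -2.08 and 0.444. By name they were 15.4 for tanycyte-like, -10.0 for astrocyte-like, -8.69 for oligodendrocyte-like and 6.54 for COP-like cells. None of these could pass, since 64 sign flips of 6 batches allow no p below 0.0312. With cells within the 20% limits the shares by name were 15 (FDR = 0.114), -9.60 and -8.34 points (FDR = 0.0909 each) for tanycyte-, astrocyte- and oligodendrocyte-like cells, so these calls were lost. No paired analysis was possible by mouse number, because FGF1 and vehicle mice carry different numbers, and the pairing used was that of the deposited batch. Of 148 gene values printed with their cluster, 13 lost their call with the batch as a block, 5 with RLE scaling and 13 without a count filter. DESeq2 gave 125 of these values and 8 lost their call, cells within the limits gave 143 and 9 lost it, at least 30 cells gave 121 and 4 lost it, and with 1 mouse left out 131 to 148 could be computed and from 5 to 40 lost it. Gfap in cluster 1 gained its call with the batch as a block and with DESeq2, and 0 of the computed values changed direction. Depth limits clusters 9 and 11, with 164 and 166 vehicle cells, and cluster 12, with 223 FGF1 cells.

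The counts of DEGs depended on the settings. Without a count filter they were 95 in cluster 1, 157 in cluster 2, 136 in cluster 3, 81 in cluster 4, 215 in cluster 5, 146 in cluster 6, 124 in cluster 7, 96 in cluster 8, 403 in cluster 9, 79 in cluster 10, 199 in cluster 11, 36 in cluster 12 and 1 in cluster 15. With DESeq2 they were 36 in cluster 4, 52 in cluster 6, 18 in cluster 8, 89 in cluster 9 and 17 in cluster 12, and with RLE scaling 6 in cluster 12, of them 2 higher and 4 lower. With the batch as a block they were 100 in cluster 1, 112 in cluster 3, 151 in cluster 6, 119 in cluster 7, 14 in cluster 8, 50 in cluster 12, 2 in cluster 16 and 348 in the merged oligodendrocyte-like clusters. With cells within the 20% limits 0 remained in cluster 8. Counting genes at or above their pooled level left 246 in cluster 0, 21 in cluster 2, 13 in cluster 3, 14 in cluster 4, 77 in cluster 5, 48 in cluster 6, 43 in cluster 7, 1 in cluster 8, 26 in cluster 10 and 1 in cluster 12, since it drops genes by construction. For the settings other than the last, the cause was not tested.

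The number of genes whose effect differed between 2 clusters was, without a count filter, 8 for clusters 0 and 7, 4 for 0 and 10, 1 for 7 and 10, 37 for 0 and 6, 33 for 1 and 4, 271 for 2 and 11, 24 for 2 and 12, 108 for 11 and 12, 510 for 2 and 9 and 651 for 5 and 9. Without the mouse as a block it was 2 for clusters 0 and 6, 13 for 0 and 1, 0 for 1 and 4, 18 for 2 and 11, 0 for 2 and 12, 2 for 11 and 12, 29 for 2 and 9 and 14 for 5 and 9. RLE scaling gave 57 for clusters 2 and 9 and 60 for 5 and 9, and cells within the 20% limits gave 1 for clusters 1 and 4. The cause was not tested.

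Leaving out 1 mouse at a time moved the counts of DEGs, with the values that moved by over 1.5 times in brackets. In cluster 0 the count ran from 234 to 732 (253 and 327 without FGF1 mice 7 and 10 and 234 and 247 without vehicle mice 20 and 25). In cluster 1 the count ran from 17 to 54 (19, 17 and 54 without FGF1 mice 6, 10 and 28 and 20, 54, 20 and 48 without vehicle mice 20, 22, 25 and 35). In cluster 2 the count ran from 28 to 84 (38 and 40 without FGF1 mice 7 and 10 and 34 and 28 without vehicle mice 20 and 25). In cluster 3 the count ran from 19 to 143 (29, 27, 27, 27 and 91 without FGF1 mice 6, 7, 10, 21 and 36 and 24, 19 and 143 without vehicle mice 20, 25 and 35). In cluster 4 the count ran from 9 to 32 (13 and 14 without FGF1 mice 7 and 21 and 12, 9, 12 and 10 without vehicle mice 20, 25, 27 and 29). In cluster 5 the count ran from 33 to 280 (78, 33, 58, 74 and 189 without FGF1 mice 6, 7, 10, 21 and 28 and 54, 77, 45 and 280 without vehicle mice 20, 22, 25 and 35). In cluster 6 the count ran from 30 to 151 (40, 38 and 50 without FGF1 mice 10, 21 and 36 and 33, 151, 41, 30 and 143 without vehicle mice 20, 22, 25, 29 and 35). In cluster 7 the count ran from 28 to 114 (28 without vehicle mouse 25). In cluster 8 the count ran from 0 to 60 (3, 0, 2, 0 and 18 without FGF1 mice 6, 7, 10, 21 and 28 and 0, 40, 0, 0, 0 and 60 without vehicle mice 20, 22, 25, 27, 29 and 35). In cluster 9 the count ran from 22 to 99 (23, 22, 26, 27 and 29 without FGF1 mice 6, 7, 10, 21 and 36 and 99 without vehicle mouse 35). In cluster 10 the count ran from 30 to 63 (30 and 30 without vehicle mice 20 and 25). In cluster 11 the count ran from 46 to 164 (63 without FGF1 mouse 10 and 69, 46, 69 and 164 without vehicle mice 22, 25, 29 and 35). In cluster 12 the count ran from 0 to 49 (18, 0 and 9 without FGF1 mice 6, 10 and 36 and 0, 15, 0 and 49 without vehicle mice 20, 22, 25 and 35). In cluster 15 the count ran from 0 to 3 (3 without vehicle mouse 22).

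With 1 mouse left out, the difference in shares ran from 4.37 to 9.12 points in cluster 0, from -3.63 to -2.11 in cluster 5, from 4.95 to 8.91 in cluster 7 (all 3 passing without FGF1 mouse 6) and from -2.35 to -1.55 in cluster 12 (lost without FGF1 mouse 7, 10, 21 or 28). By name it ran from 11.9 to 19.8 points for tanycyte-like cells, from -11.3 to -8.57 for astrocyte-like cells (kept without FGF1 mouse 6, FGF1 mouse 10 or vehicle mouse 27), from -10.2 to -7.67 for oligodendrocyte-like cells (kept without vehicle mouse 27) and from 5.65 to 7.25 for COP-like cells (lost without any vehicle mouse but 27). COP-like cells are cluster 9 alone. As cluster 9, adjusted over the 20 clusters, the same share kept its call with any 1 mouse left out.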
